A study of Homo sapiens with 12 samples.

Results

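Untreated NT2/D1 cells lacking PRMT6 were compared with untreated CRISPR/Cas9 control cells across all genes of a raw count table of messenger RNA. NT2/D1 is a human embryonal carcinoma line, a pluripotent tumour line that can differentiate. The comparison uses 6 of the 12 libraries of the series: 3 of the control, which carries no deletion according to its labels, and 3 of cells in which PRMT6 was deleted by CRISPR/Cas9. The labels name 1 knockout line only, so the genotype cannot be told apart from what else sets that line apart from the control. The other 6 libraries hold the same genotypes after 3 days in 1 µM all-trans retinoic acid (ATRA), and enter the fit to share 1 estimate of the spread between libraries. They thereby also take part in the choice of genes tested, the scaling and the removal of trends. Every library was made from cells in the same serum medium, and nothing in the labels ties the libraries of a group to different cultures: the p-values then cover only the variation among these libraries, possibly technical.

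PRMT6 is a nuclear enzyme that adds 2 methyl groups to the same nitrogen of an arginine. Its best known mark, on histone H3 next to lysine 4, hinders the methylation of that lysine by MLL complexes and is associated with gene repression. PRMT6 also methylates other histone and non-histone proteins, and has been linked to the repression of CDKN1A.

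Total counts ran from 35.8 to 60.4 M in the control libraries and from 25.5 to 32.3 M in the knockout libraries. Knockout 1 and knockout 2 were near-identical: the chi-square statistic between their counts was 9.01 per gene, against 78.1 and 80.8 for either of them against knockout 3, and 205 to 416 between control libraries. Counts over all genes and for many lists are therefore also given with knockout 1 and 2 summed to 1 library, called the summed pair below. That fit also sums the 2 near-identical knockout libraries with ATRA. GC content, the share of G and C in a gene's transcripts, moved with genotype. The rank correlation of a library's level, relative to the mean of the libraries, with GC content was -0.31, -0.43 and -0.54 in the control libraries and 0.46, 0.59 and 0.58 in the knockout libraries, across 11738 genes of at least 5 CPM (counts per 1 M reads on scaled library sizes), which share each library's depth and are not replicates. Results are also given after each library's smooth trend with GC content was removed. The markers fit the label: 12 of 13 embryonal carcinoma genes were tested, none was below 45.2 CPM in any of the 6 libraries, and SOX2 and TRIM71 alone were called, both lower in the knockout. The 13th, ZFP42, had too few counts to be tested. POU5F1 stood at 590.5, 1498 and 520.0 CPM in the control and 791, 840.0 and 1524 CPM in the knockout, and the groups overlapped (edgeR adjusted p = 0.757; named after its value was seen).

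Across the 19130 genes tested, 2480 were higher in the knockout (13%) and 4196 lower (21.9%), 34.9% in all, at an adjusted p under 0.05 in edgeR's quasi-likelihood test; such genes are described as called, and as having risen or fallen. The libraries of the 2 groups did not overlap for 47.9% of genes, 20.9% higher and 27% lower. With the summed pair 403 genes were called higher (2.04%) and 669 lower (3.38%), which is 5.42% of 19777. With the GC trend removed 1638 were called higher (8.56%) and 1287 lower (6.73%), which is 15.3%. With both steps 112 genes were called higher (0.566%) and 34 lower (0.172%), 0.738% in all, and 142 of these 146 were among the 6676. Removing the trend moved the median log2 fold change of all genes from -0.11 to 0.10, so each list below is read against the median under the same setting, and it moved the share of calls that were higher from 37% to 56%. It was 77% with both steps, and 31% when a trend with gene length was removed instead. In all 4 settings 99 genes were called higher and 33 lower. Leaving out control 3 gave 3548 calls, leaving out knockout 1 gave 3788 and leaving out knockout 2 gave 3058, against 6676 with every library.

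The GC dependence was strongest at the low end. Of 1099 genes under 40% GC, 838 fell and 4 rose in the knockout, with a median log2 fold change of -1.45. Of 2094 genes between 55 and 60% GC, 661 rose and 93 fell, with a median of 0.48. After removal of the trend the first bin held 70 genes higher and 40 lower, and the other held 160 and 153. Control 1 stood apart from its group: genes under 40% GC lay 0.05 above the mean of the libraries on the log2 scale in control 1, 0.91 above it in control 2 and 1.01 above it in control 3. In the knockout libraries they lay at -0.61, -0.68 and -0.67. Where the slope comes from was not tested.

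**Figure D1:**
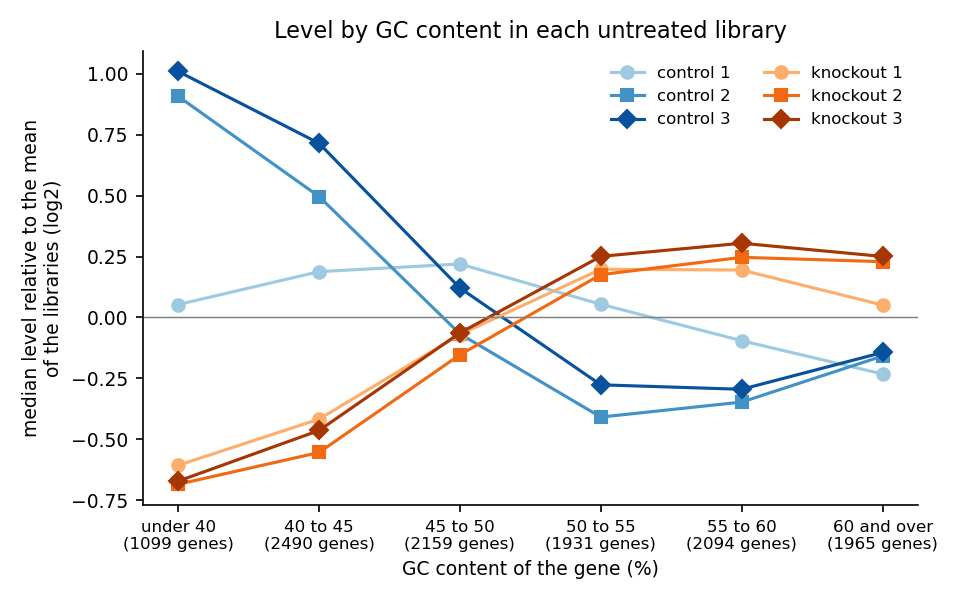
Median level of genes in 6 bins of GC content, relative to the mean of the libraries, on the log2 scale, with 1 line per untreated library. All 3 knockout lines climb from -0.68 to -0.61 in the lowest bin to above 0 from 50% GC on, while control 2 and 3 start at 0.91 and 1.01 and end below 0, and control 1 starts at 0.05 and ends at -0.23.

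PRMT6 itself stood at 22.4, 1.94 and 8.94 CPM in control 1, 2 and 3. Only 2 counts fell on PRMT6 across the knockout libraries together, and the ratio of control to knockout was 395 (95% counting interval 109 to 3264, which covers counting error only). The spread within the control was wide, and control 2 had the least. Among 13 genes of the arginine methyltransferase family and its partners, 3 rose and 5 fell, PRMT6 among them. PRMT1, the main enzyme of the class, was 1.60-fold higher and PRMT7 1.78-fold higher, and COPRS, which ties PRMT5 to histones, rose 1.99-fold (edgeR adjusted p = 0.0211, 0.0118 and 0.0101). PRMT3, which methylates a ribosomal protein, stood at 12.8, 25.9 and 23 CPM in the control and at 5.38, 5.89 and 6.21 CPM in the knockout. NDUFAF7, an arginine methyltransferase of mitochondrial complex I assembly, fell 3.43-fold. PRMT10 and CLNS1A, the latter an adaptor of PRMT5, fell 3.77-fold and 2.10-fold. PRMT6 and NDUFAF7 were the only calls of this list with the GC trend removed, and NDUFAF7 lies in the lowered chromosome 2 run described below. With the summed pair PRMT6, PRMT3 and NDUFAF7 were. Without control 3, knockout 1 or knockout 2 the lower calls numbered 3, and the higher calls numbered 6 without control 1 and 1 without control 3.

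Of the machinery that acts on lysine 4 of histone H3, 3 of 18 methyltransferase subunits fell and none rose, a smaller share than the 21.9% of all genes that fell; there were 5 without control 2 and 1 without knockout 2. DPY30, a core subunit of the MLL complexes, fell 3.70-fold, from 25.1, 71.6 and 42.9 CPM to 9.84, 10.3 and 17.7 CPM. It remained lower with the GC trend removed (edgeR adjusted p = 0.0177), whereas KDM6A and ASH2L were not called then. With the summed pair none of the 18 was called. DPY30 lies in a run of neighbouring genes on chromosome 2, described below, that was lower in the knockout. Of 7 genes of the H3K4 demethylase list, none was called by edgeR as counted and 1 was called higher with the trend removed. Polycomb repressive complex 2, which methylates lysine 27 of histone H3, had 5 of 11 members lower and 1 higher. MTF2, SUZ12 and RBBP7 fell 3.24-fold, 3.16-fold and 2.34-fold. None of the 11 was called with the GC trend removed, 1 was lower with the summed pair, and without control 3 or knockout 2 only 1 of the 5 was lower. The median GC content of the 11 genes was 44.6%, against 50.4% over all genes tested. Heterochromatin and retroelement silencing genes had 7 of 19 members lower, among them CBX3, a heterochromatin protein, and SUV39H2, a lysine 9 methyltransferase, and again 0 with the trend removed and 0 with the summed pair.

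The largest changes by the rule for named genes were in single genes with little in common by function. RBM12B, an RNA-binding protein gene, stood at 19.2, 17.7 and 13.7 CPM in the control and had no count in any knockout library. It was at least 449-fold lower, with 3 counts over the knockout group as the floor. ZNF512, a zinc finger gene, stood at 32.5, 21.2 and 25.1 CPM against 0.105, 0.0982 and 0 CPM. Both were called in all 4 settings, and ZNF512 lies in the lowered chromosome 2 run described below. MX2, an interferon-induced GTPase, fell 16.8-fold, from 40.8, 18.4 and 29.2 CPM to 1.90, 1.77 and 1.58 CPM, and GDPD2, a phosphodiesterase gene, fell 14.9-fold. The interferon and RNA sensing list, which does not hold MX2, was mixed, with 3 of 28 genes higher (10.7%) and 6 lower (21.4%). These shares are close to the 13% and 21.9% of all genes. With the GC trend removed 1 was higher and 0 lower. In the other direction HOXC11, a posterior homeobox gene, had no count in the control and stood at 8.19, 8.51 and 4.11 CPM in the knockout, at least 389.9-fold higher. SST, which encodes the hormone somatostatin, stood at 14.6, 15.6 and 11.1 CPM against 3 counts in the whole control, a ratio of 762 (95% counting interval 260.1 to 3701). The 3 knockout libraries were close to each other for SST, unlike for the stromal genes below.

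**Figure D2:**
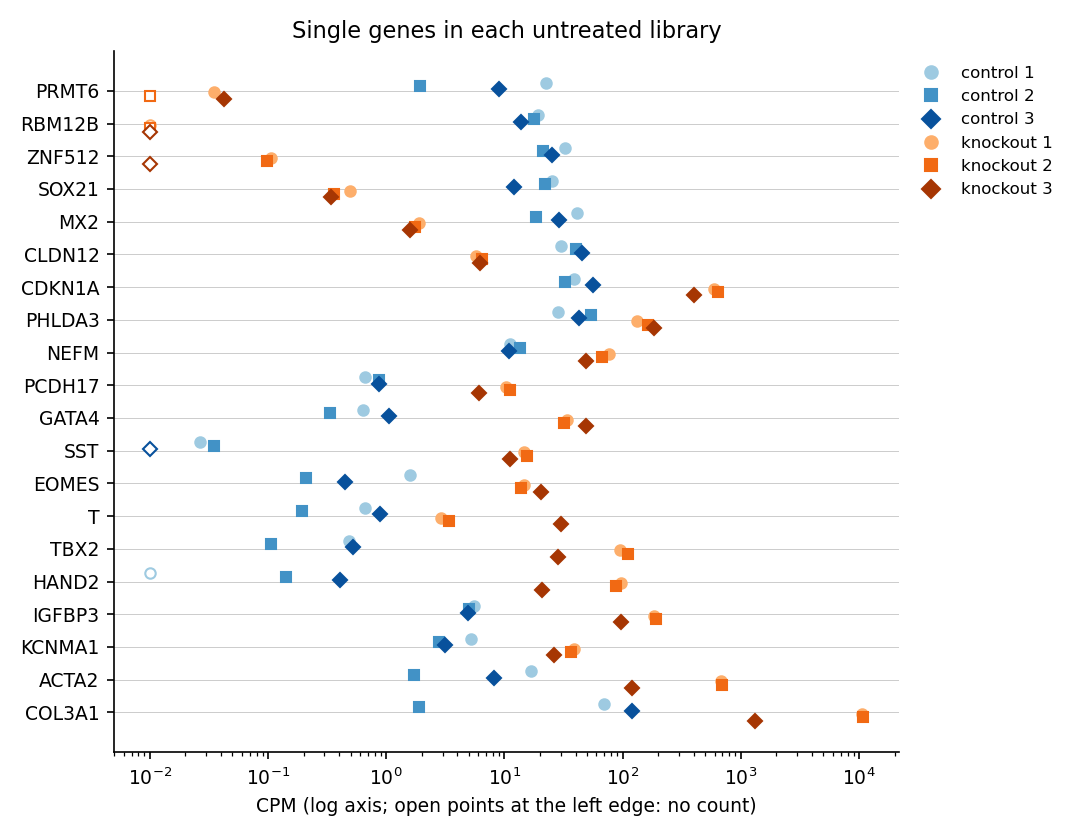
Level of 20 genes in each untreated library in CPM on a log axis, with 1 point per library and open points at the left edge for a library with no count. The groups do not overlap for any of the 20 genes, which the rule for named genes largely fixed in advance. Over all genes tested the groups did not overlap for 47.9%. Knockout 3 lies below knockout 1 and 2 for COL3A1, ACTA2, HAND2 and TBX2 and above them for T.

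Transcription factors are given by family. Of 14 T-box genes 5 rose and none fell, with 4 called with the summed pair, 5 with the GC trend removed and 3 with both. TBX2, a repressor in heart and limb, stood at 95.2, 112 and 28.2 CPM in the knockout and at most at 0.519 CPM in the control. EOMES, which acts in mesendoderm, stood at 14.5, 13.8 and 20.2 CPM against 1.57, 0.211 and 0.447 CPM. T (brachyury), the classical gene of early mesoderm, stood at 2.92, 3.40 and 29.97 CPM against at most 0.894 CPM, so knockout 3 carried most of its mean. TBX4, a hindlimb factor, rose 8.78-fold and TBX3 6.85-fold. All 7 tested GATA and HAND genes had a log2 fold change above 0, and 4 were called, against 2 with the summed pair. HAND2, a factor of heart and limb, stood at 96.4, 88.8 and 20.7 CPM against at most 0.404 CPM. GATA4, a factor of heart and endoderm, rose 56.2-fold to 34.0, 32.2 and 49.3 CPM. GATA6 rose 12.4-fold, and GATA3 rose 3.34-fold but was not called with the GC trend removed. ISL1, a LIM homeobox gene of heart progenitors and motor neurons, rose 16.5-fold, OSR1, a gene of intermediate mesoderm and kidney, rose 72.7-fold, and GLIS3, a zinc finger factor of pancreas and kidney, rose 15.98-fold. NR2F2, a nuclear receptor of mesenchyme and veins, rose 10.8-fold. Other families were mixed, against 13% higher and 21.9% lower over all genes. The LIM homeobox list had 2 of 8 higher and 2 lower (25% each), and the SOX list 3 of 16 higher (18.75%) and 4 lower (25%). The forkhead list had 4 of 37 higher and 4 lower (10.8% each), and the nuclear receptor list 7 of 41 higher (17.1%) and 6 lower (14.6%). No forkhead gene was higher without control 3, knockout 1 or knockout 2, and 7 were without control 1. The nuclear receptors called higher numbered 4 without control 2, 3 without control 3 or knockout 1 and 1 without knockout 2, and the lower ones 3 without control 3 or knockout 2. Endoderm genes had 4 of 11 higher, SOX17 among them, which nevertheless did not exceed 1.37 CPM in any library.

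Muscle and contractile genes had the highest median of all 92 lists. Of 19 tested 12 rose and none fell, with a median log2 fold change of 3.02 against -0.11 over all genes. Their summed level was 1543, 404 and 832 CPM in the control and 6270, 6168 and 3488 CPM in the knockout. ACTA2, smooth muscle actin, stood at 685, 695 and 120 CPM against 16.9, 1.73 and 8.20 CPM. TPM2, a tropomyosin, stood at 983, 957 and 890 CPM against 243, 16.1 and 89.8 CPM, so the knockout libraries were alike for TPM2 and not for ACTA2. TNNI1, a slow skeletal troponin, rose 17.8-fold. MYOCD, a coactivator that drives smooth and cardiac muscle genes together with SRF, rose 8.59-fold, to 6.96, 5.27 and 6.59 CPM. DES, the muscle intermediate filament desmin, was picked with its value known: it stood at -0.33 on the log2 scale and was not called (edgeR adjusted p = 0.458). The list marks no single tissue, since it holds smooth, skeletal and cardiac muscle genes. With the summed pair 3 of the 12 were called (ACTA2, TPM2 and MYOCD), with the GC trend removed 10 were, at a median of 2.72, and without control 3 the count was 6. In bulk RNA more cells of another type and more RNA per cell cannot be told apart.

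Genes of this list are classical targets of the serum response factor SRF, which binds a 10-base element called the CArG box. The element was searched in the 250 bases before the gene start in RefSeq promoters (GRCh38.p14), where its pattern reads the same on both strands. It was found in 4 of the 11 list members with a promoter. ACTA2, TNNT2 and TPM2, all called higher, had no match there, nor had CNN1, TNNT1, TPM1 and CALD1, which were not called. The element was found in 1.14% of 27305 promoters, in 1.40% of the 1576 promoters of genes called higher and in 0.878% of the 2960 of genes called lower. The list holds known SRF targets and SRF itself, so its share was largely fixed in advance and is not read against these. A part of SRF was not tested. The 4 promoters, chosen after the match was seen, are printed because they are the members of the list that hold the element: 150 bases ending just before the gene start, 5′ to 3′ on the gene's strand, with each CArG box in capitals.
ACTG2: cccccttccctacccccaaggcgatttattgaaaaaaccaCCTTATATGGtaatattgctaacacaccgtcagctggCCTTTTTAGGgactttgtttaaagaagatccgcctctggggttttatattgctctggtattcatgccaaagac
ACTC1: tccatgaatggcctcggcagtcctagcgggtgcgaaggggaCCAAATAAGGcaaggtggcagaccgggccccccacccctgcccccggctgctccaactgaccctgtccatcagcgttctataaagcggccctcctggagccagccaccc
MYL7: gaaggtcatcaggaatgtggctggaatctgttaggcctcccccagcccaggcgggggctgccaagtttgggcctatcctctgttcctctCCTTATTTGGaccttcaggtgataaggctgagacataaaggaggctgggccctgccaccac
SRF: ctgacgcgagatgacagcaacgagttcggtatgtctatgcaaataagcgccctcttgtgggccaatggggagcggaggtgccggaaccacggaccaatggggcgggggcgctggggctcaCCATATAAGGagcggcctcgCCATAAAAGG
In ACTG2, enteric smooth muscle actin, the boxes start 110 and 73 bases before the gene start, in ACTC1, cardiac actin, the box starts 109 bases before it, in MYL7, an atrial light chain, 61 bases, and in SRF itself 30 and 10 bases. The ACTG2 promoter lies on chromosome 2 at chr2:73892858-73893007 (plus strand) and that of SRF at chr6:43171119-43171268 (plus strand). The ACTC1 promoter lies at chr15:34795550-34795699 (minus strand) and that of MYL7 at chr7:44141333-44141482 (minus strand). ACTG2 stood at 27.8, 23.9 and 0.128 CPM in the knockout, so knockout 3 lay within the control range of 0.115 to 0.229 CPM. MYL7 stood at 14.8, 16.9 and 12.2 CPM against at most 1.09 CPM, and ACTC1 at 38.1, 39.2 and 77.9 CPM against 17.7, 0.211 and 5.45 CPM. SRF rose 1.88-fold. A match describes these letters and shows no binding, and nothing is read from 4 promoters.

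Of 16 fibroblast and stromal genes 10 rose and 1 fell, with a median log2 fold change of 2.29. Their summed level was 3215, 1236 and 1773 CPM in the control and 19450, 19960 and 6097 CPM in the knockout. COL3A1, a fibrillar collagen, alone accounted for 10570, 10920 and 1319 CPM of it in the knockout, against 69.7, 1.88 and 121 CPM in the control. FAP, fibroblast activation protein, had 1 count in the control and stood at 6.64, 5.59 and 0.771 CPM in the knockout, a ratio of 751 (95% counting interval 134 to 29730). TCF21, a factor of mesenchyme, rose 21.1-fold and MMP2, a gelatinase, 4.44-fold, while the receptor PDGFRA fell. Knockout 3 was the lowest knockout library for COL3A1, FAP, TCF21 and MMP2. Without knockout 3 the genes called higher numbered 10, as with the GC trend removed, and with the summed pair they numbered 2.

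Of 41 collagen genes 15 rose and 2 fell, at a median of 0.98, with 13 and 1 with the GC trend removed and 4 and 0 with the summed pair. Of the members that form basement membrane and beaded filaments, COL4A1 and COL6A1 were even across the knockout libraries. COL4A1 stood at 872, 916 and 714 CPM against 318, 133 and 206 CPM, and COL6A1 at 641, 767 and 718 CPM against 106, 150 and 273 CPM. Matrix proteoglycans and glycoproteins had 15 of 39 members higher and 2 lower, as many as with the GC trend removed. With the summed pair 5 were higher and none lower. In this group FBLN5, an elastic fibre protein, rose 9.11-fold, MFAP4 13.7-fold and the surface proteoglycan SDC4 2.73-fold. Enzymes that modify and cross-link collagen had 8 of 16 higher and none lower, LOXL4 7.60-fold and the prolyl hydroxylase P4HA2 4.51-fold among them. With the summed pair 3 of these enzymes were higher. Matrix proteases and their inhibitors had 16 of 40 higher and 5 lower, with TIMP1 2.54-fold, SERPINE2 2.56-fold and ADAMTS18 13.3-fold higher. With the summed pair 5 proteases and inhibitors were higher and none lower. Laminins did not follow (2 of 13 genes of the laminin and nidogen list rose, both nidogens, and 1 fell): NID2 rose 12.8-fold, NID1 rose 4.16-fold and LAMA2 fell 4.17-fold. Without knockout 1 or knockout 2 the collagens called higher numbered 8 and 7, and without knockout 2 the proteases numbered 9.

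Protocadherins are homophilic adhesion molecules that give neurons a surface identity. In the PCDHA, PCDHB and PCDHG clusters 34 of 35 tested genes had a log2 fold change above 0, against 8875 of the 19130 genes tested. Of the 35, 23 were called higher (65.7%, against 13% of all genes) and none lower, at a median of 1.46. The summed level was 175, 66.7 and 85.4 CPM in the control and 300, 295 and 291 CPM in the knockout, so the groups did not overlap. PCDHB16 stood at 5.38, 4.94 and 12.7 CPM against 0.694, 0.123 and 0.937 CPM. PCDHGC3 stood at 52.1, 51.01 and 54.6 CPM against 25.2, 8.10 and 15.2 CPM. PCDHGA11 rose 4.56-fold and PCDHB9 7.12-fold. Genes of the PCDHA and PCDHG clusters share constant exons, and reads in these can be counted for several of them or none. Single members of those clusters are therefore uncertain, and the 34 and 23 genes may not be that many separate observations. PCDHB genes have no shared exons but are similar in sequence. Of 10 protocadherins outside the clusters 4 rose: PCDH17 from 0.667, 0.863 and 0.865 CPM to 10.3, 11.2 and 6.08 CPM, PCDH7 9.66-fold, PCDH18 4.47-fold and PCDH8 2.88-fold. Removal of the GC trend left 18 clustered genes called, with the summed pair 5, and without control 2, control 3, knockout 1 or knockout 2 there were 14, 9, 13 and 12. Cadherins proper had 2 of 19 genes higher and 2 lower.

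Other surface families split. Of 21 claudin and tight junction genes 7 fell and 1 rose, at a median of -1.10. CLDN12 stood at 30.2, 40.6 and 45.4 CPM in the control and at 5.76, 6.41 and 6.17 CPM in the knockout, CLDN4 fell 6.002-fold and OCLN, occludin, fell 5.44-fold. These 3 were also called with the summed pair and with the GC trend removed, when 5 of the list were lower in all; without control 3, knockout 1 or knockout 2 the lower calls numbered 4, 3 and 3. Of 13 keratins 4 rose and 1 fell, at a median of 0.41, and 3 and 0 at a median of 0.09 with the GC trend removed; with the summed pair 1 was higher and 1 lower. KRT8, of simple epithelia, stood at 5303, 5817 and 5329 CPM against 2520, 798 and 1110 CPM, and KRT18 rose 4.13-fold. Of 70 potassium channel genes 16 fell (22.9%) and 4 rose (5.71%), against 21.9% and 13% of all genes. With the GC trend removed 15 were lower and 2 higher, with the summed pair 2 and 2, and with both steps 0 and 1. KCNF1, which lies in the lowered chromosome 2 run described below, fell 8.12-fold, and KCNN3 fell 3.95-fold. By contrast KCNMA1, the large-conductance channel of smooth muscle and neurons, stood at 38.5, 36.7 and 26.4 CPM against 5.21, 2.82 and 3.14 CPM. Without knockout 1 or knockout 2 the lower channels numbered 10 and 7. Ephrins and EPH receptors had 6 of 21 members higher and none lower, with EFNA1 4.12-fold and EPHA2 3.38-fold higher. With the GC trend removed 4 were higher and 2 lower, and with the summed pair 2 were higher and none lower. Without control 3, knockout 1 or knockout 2 there were 3 higher.

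Among 30 secreted ligands and antagonists of the TGF-beta family 12 rose and 2 fell, at a median of 1.02, and 10 and 1 with the GC trend removed. With the summed pair 3 were higher and none lower. LEFTY1, a Nodal antagonist, stood at 4.92, 4.91 and 4.45 CPM against 0.267, 0.845 and 0.620 CPM. TGFB1 rose 2.84-fold, and BMP1, a protease that activates collagens and ligands, rose 4.62-fold. ID1, a direct target of BMP signals, rose 2.62-fold. It comes from the list of ID, HES and HEY repressors, of which 2 of 11 rose and 1 fell. These are 18.2% and 9.09%, against 13% and 21.9% of all genes. Without control 2, control 3 or any 1 knockout library, 1 gene of that list was higher. The activity of BMP signalling was not tested. WNT ligands and receptors were split, 9 higher and 4 lower of 30, and 2 and 1 with the summed pair. WNT5B stood at 212, 218 and 450 CPM against 59.2, 26.6 and 44.96 CPM, and WNT2 at 13.4, 13.6 and 0.343 CPM against at most 0.246 CPM. DKK1, a WNT antagonist, rose 5.56-fold. Without control 3 or knockout 2 the WNT genes called higher numbered 4 and 5. In the insulin-like growth factor list 8 of 17 genes rose and 2 fell, and 4 and 1 were called with the summed pair. IGFBP3 stood at 184, 192 and 97.0 CPM against 5.55, 5.02 and 4.95 CPM, and IGFBP5 at 973, 920 and 137 CPM against 39.7, 11.4 and 18.2 CPM. INSR and IGF2BP3 were the 2 that fell. Leaving out control 2, control 3, knockout 1 or knockout 2 left 4 of the 8. Notch genes had 2 higher and 3 lower of 19 (10.5% and 15.8%). Hedgehog genes had 1 and 0 of 12 (8.33% and 0%), and FGF genes 1 and 2 of 21 (4.76% and 9.52%). All of these shares lie below the 13% higher and 21.9% lower of all genes. These counts depended on single libraries: without control 1 the higher calls numbered 6 for Notch and 4 for Hedgehog, and the lower calls for FGF 4, and without any other 1 library no FGF gene was lower.

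Inhibitors of cyclin-dependent kinases, which hold back the cell cycle, had 3 of 8 members higher and 2 lower. With the GC trend removed 3 were higher and none lower, with the summed pair 1 was higher, and leaving out control 2, knockout 1 or knockout 2 left 1 lower. CDKN1A, the p21 cell-cycle inhibitor, stood at 595, 648 and 404 CPM against 38.5, 32.5 and 56.5 CPM and was called in all 4 settings. Of the other kinase inhibitors, CDKN2C rose 9.35-fold, CDKN2B rose 7.30-fold and CDKN3 fell 3.12-fold. Outside that list, PHLDA3, which restrains AKT, stood at 133, 163 and 184 CPM against 28.4, 54.2 and 42.5 CPM. POLH, a translesion polymerase, rose 2.40-fold and the apoptosis gene BAX 2.19-fold. PHLDA3 and POLH were called in all 4 settings too. Of 30 lysosomal genes 12 rose and 1 fell. HEXA and CTSA rose 2.93-fold and 2.65-fold. The lysosomal calls numbered 8 with the GC trend removed, 0 with the summed pair, and 6 without control 3, knockout 1 or knockout 2.

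Of 14 neural progenitor genes 6 fell and none rose, at a median of -1.43. With the GC trend removed 5 were lower at a median of -1.44, with the summed pair 2 and with both steps 1. SOX21, which promotes neuronal differentiation, stood at 0.492, 0.360 and 0.343 CPM in the knockout against 25.2, 22.2 and 12.1 CPM. SOX2 and SOX3, which maintain progenitors, stood at 50.7, 47.3 and 78.9 CPM against 156, 279 and 183 CPM, and at 5.94, 5.01 and 6.38 CPM against 24.5, 11.1 and 19.6 CPM. FABP7, a radial glia gene, fell 11.5-fold. Pluripotency genes had 5 of 24 lower and 3 higher, close to the 21.9% and 13% of all genes. The lower calls numbered 3 without control 3 and 2 without knockout 1 or knockout 2, and the higher 1 without control 3. Among the lower ones USP44, a histone H2B deubiquitinase, stood at 6.396, 6.67 and 7.54 CPM against 21.2, 160 and 52.5 CPM, and TRIM71 fell 2.61-fold. TRIM71 lies in the chromosome 3 run from TRNT1 to PDE12 described below. The 3 that rose were LEFTY1, LEFTY2 and NODAL, all of Nodal signalling. NODAL stood at 2.67, 2.75 and 37.4 CPM against at most 1.64 CPM, so knockout 3 held most of it, as for T. Of 22 neuronal genes 4 rose (18.2%) and 6 fell (27.3%), near the 13% and 21.9% of all genes. The lower ones numbered 3 without control 2, knockout 1 or knockout 2. The neurofilament gene NEFM stood at 77.3, 67.6 and 48.7 CPM against 11.2, 13.5 and 11.04 CPM, and SNAP25, a synaptic fusion protein, rose 6.89-fold, while DCX, a microtubule protein of migrating neurons, fell 5.83-fold. SNAP25 lies in the chromosome 20 run described below, which was higher in the knockout. Trophoblast and amnion genes, markers of other cells that the cultures could hold, summed to 66.9 to 240 CPM in the control and 396 to 426 CPM in the knockout, with 5 of 13 higher and 1 lower (3 higher without knockout 3). As a list they did not rise: 6 of the 13 lay above 0 and 7 below. The median log2 fold change of these genes was -0.24, against -0.11 over all genes. Their part in the results was not tested. Endothelial and blood genes did not separate the groups: they summed to 55.9 to 144 CPM and 80.1 to 89.3 CPM. Of these 11 genes 2 were higher (18.2%) and 3 lower (27.3%), again near the shares of all genes. With the summed pair 1 pluripotency gene was higher and none lower, 3 neuronal genes were higher and 1 lower, and 3 trophoblast and amnion genes were higher.

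Cell division genes showed the opposite behaviour under the GC setting. As counted, 34 of 46 mitosis and spindle genes fell and none rose, at a median log2 fold change of -1.44. BUB1, a spindle checkpoint kinase, stood at 66.2, 114 and 152 CPM in the control and at 26.2, 21.4 and 21.5 CPM in the knockout. CCNA2, cyclin A2, stood at 69.0, 85.9 and 94.0 CPM against 29.8, 26.6 and 43.6 CPM in the knockout. Of the 46 genes 30 had a GC content under 45%, and 28 of those fell, whereas none of the 6 genes at 50% or more was called. With the GC trend removed 4 genes were still lower (BUB1, NUSAP1, CENPA and HMMR) at a median of -0.31, below the 0.10 of all genes, and with the summed pair 3 did. Fanconi and homologous recombination genes followed the same course, with 15 of 25 lower as counted and 1, FANCL, with the trend removed. BUB1, CENPA and FANCL lie in the lowered chromosome 2 run described below. Without control 3 or knockout 2 the mitosis calls numbered 21 in each case, and the Fanconi calls 4, with 6 without knockout 1 and 7 without knockout 3. DNA replication genes were split as counted, 8 higher and 9 lower of 37, and 0 higher and 1 lower with the trend removed. With the summed pair 1 Fanconi gene was lower, and of the replication genes none was higher and 3 were lower. Leaving out control 2, control 3 or any 1 knockout library left 1 replication gene higher, and leaving out control 3 or a knockout library left 4 or 5 lower.

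Subunits of 1 complex parted by GC content. Among 37 proteasome subunits 9 rose and 12 fell. All 11 called genes with a GC content under 45% fell, and all 9 called at 50% or more rose. PSMA4 stood at 59.0, 51.2 and 63.5 CPM against 108, 447 and 182 CPM, and PSMD12 fell 2.91-fold. PSMB10, an immunoproteasome subunit, rose 3.42-fold and stayed called with the trend removed, when 3 subunits were higher and none lower. With the summed pair 1 subunit was higher and none lower. The rank correlation of log2 fold change with GC content was 0.84 across these 37 genes, 0.80 across the 46 mitosis genes and 0.74 across 75 mitochondrial ribosomal proteins, of which 18 rose and 15 fell (3 and 2 with the trend removed). Without control 3 the subunits called higher numbered 1 in the proteasome and 4 in the mitochondrial ribosome, and without knockout 3 they numbered 2 and 5. The correlation was -0.16 across the 19 muscle genes, none of which had a GC content under 45%. DEAD and DEAH box helicases had 5 of 54 higher and 20 lower (1 and 2), and cytosolic tRNA synthetases 1 of 20 higher and 8 lower (2 and 2). Cholesterol synthesis had 8 of 24 higher and 7 lower (3 and 2). With the summed pair the helicases had none higher and 3 lower, the synthetases none and 1, and cholesterol synthesis 2 and 3. The mitochondrial ribosomal proteins then had 1 higher and 3 lower. Without control 3 or knockout 2 the helicases called lower numbered 12 and 10, the synthetases 4 in each case, and the cholesterol genes called higher 3 in each case. The helicases called higher numbered 13 without control 1. In that pathway MVD and MVK, of its early steps, rose 2.06-fold and 1.99-fold, and MSMO1, of the later steps, fell 7.65-fold, from 53.5, 141 and 203 CPM to 17.5, 14.99 and 19.5 CPM.

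**Figure D3:**
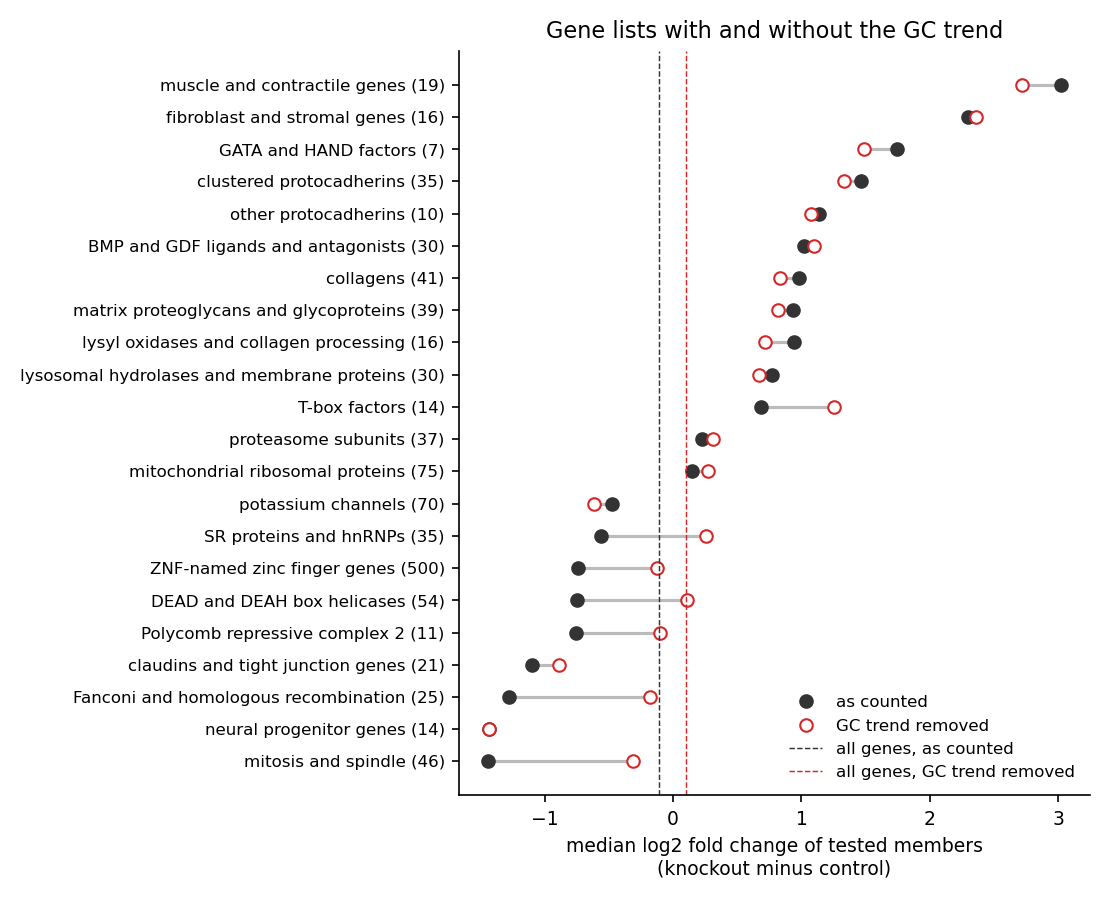
Median log2 fold change of the tested members of 22 gene lists (number tested in brackets) as counted (filled) and with the GC trend removed (open), with dashed lines for all genes at -0.11 and 0.10. Muscle, stromal, protocadherin, claudin and neural progenitor lists keep their distance from the dashed lines, and mitosis, Fanconi, helicase and splicing lists move close to them.

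**Figure D4:**
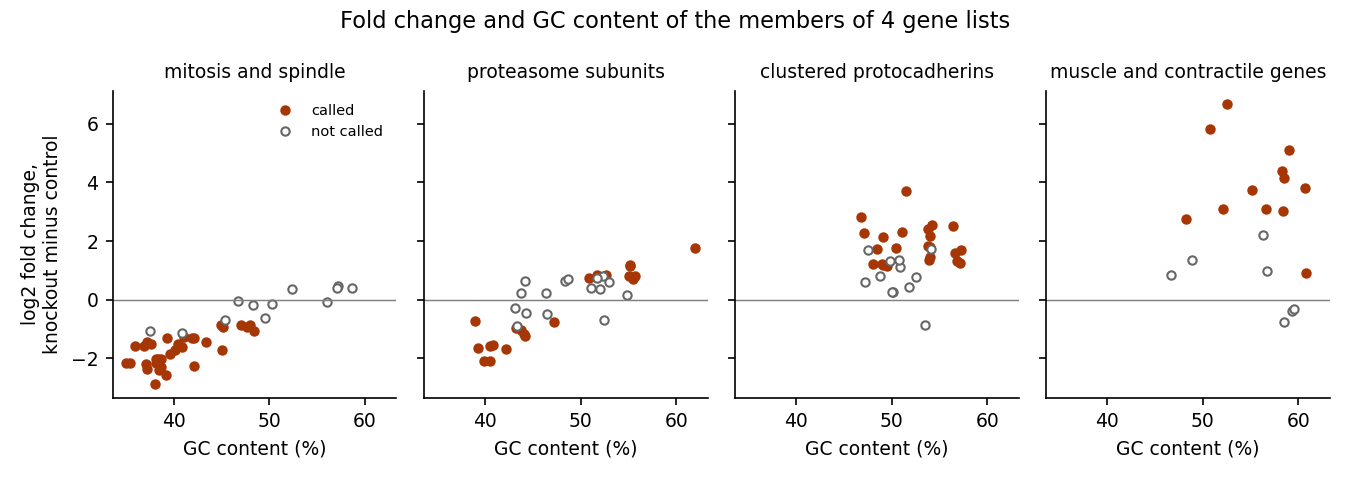
Log2 fold change against GC content for the members of 4 lists, with called genes filled. Mitosis and proteasome genes lie along 1 rising line (rank correlations of 0.80 and 0.84), whereas 34 of 35 clustered protocadherins and 16 of 19 muscle genes lie above 0, with no muscle gene under 45% GC.

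The largest gene family, zinc finger genes with ZNF symbols, leaned downward. Of 500 tested 199 fell and 36 rose, at a median of -0.74. Of the 28 in the cluster on 19p12, 21 fell and none rose, at a median of -1.52. Within the cluster ZNF486 stood at 0.141, 0 and 0.128 CPM in the knockout against 0.774, 20.4 and 9.34 CPM, and ZNF90 at 4.18, 4.22 and 5.57 CPM against 17.3, 33.4 and 32.8 CPM. Elsewhere ZNF562 fell 5.28-fold. With the GC trend removed 52 of the 500 were lower and 14 higher, and 3 and 1 of the 28, at medians of -0.12 and -0.51. With the summed pair the lower calls numbered 21 and 2. Without control 3, knockout 1 or knockout 2 they numbered 93, 94 and 72 of the 500, and 12, 11 and 9 of the 28, with 11 of the 28 without control 2. Reads of such similar genes can be counted for the wrong copy, so single members are uncertain. Of 26 genes of cancer-testis families, normally expressed in the germline, 10 fell and 1 rose, and 4 and 0 with the trend removed; the lower calls numbered 6 without control 3 or knockout 3 and 5 without knockout 2. MEIOB, a meiotic recombination gene, stood at 0.105, 0.131 and 0.128 CPM in the knockout against 1.52, 10.2 and 23.6 CPM. TDRD12, a Tudor protein of the piRNA pathway, fell 3.32-fold. Replication-dependent histone genes, whose mRNAs mostly lack a poly(A) tail, had 7 of 38 higher (18.4%) and none lower, against 13% and 21.9% of all genes. HIST1H1C and HIST2H2BE were 2.78-fold and 2.28-fold higher. With the GC trend removed 5 of the 38 were higher and none lower. As counted, the higher calls numbered 3 without control 3 and 4 without knockout 2 or knockout 3. Imprinted genes had 7 of 24 higher (29.2%) and 5 lower (20.8%), the lower share close to the 21.9% of all genes. With the GC trend removed 5 of the 24 were higher and 2 lower. As counted, 4 were higher without knockout 1 or knockout 2, and at most 2 lower without any 1 library but control 1. NDN and MEST rose 2.74-fold and 6.14-fold. With the summed pair the cancer-testis list had 4 lower, the histone list 2 higher and the imprinted list 2 higher.

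Changes were also followed along the chromosomes, with genes placed by GENCODE. With the GC trend removed, the median log2 fold change was followed along expressed genes in windows of 101 neighbours, and runs of at least 30 genes whose window median lay over 0.25 from that of all 11715 placed genes (0.09) are described without a test, since the values themselves chose them. The longest run, from SH3YL1 to MIR4435-1HG on chromosome 2, held 375 genes with a median of -0.44, and 76.5% of its genes were below 0, against 44.3% of all placed genes. Relative to the mean of all 12 libraries its median was 0.35, 0.15 and -0.01 in control 1 to 3 and -0.26, -0.21 and -0.15 in knockout 1 to 3. In the ATRA libraries, which did not choose the run, it was 0.29 to 0.30 in the control and -0.28 to -0.16 in the knockout. On chromosome 3 a run of 285 genes from TRNT1 to PDE12 had a median of -0.30, with control 2 at -0.27, below every knockout library, whereas control 1 and 3 were at 0.46 and 0.22. The ATRA libraries stood at 0.28 to 0.31 in the control and -0.26 to -0.20 in the knockout. A run of 107 genes from C20orf96 to NINL on chromosome 20 had a median of 0.43, with -0.01 to -0.35 in the control and 0.13 to 0.23 in the knockout. On chromosome 16 the run of 93 genes from PKD1 to SHISA9, with a median of 0.41, rested on control 2 (-0.81), since control 1 at 0.23 lay above knockout 1 and 2 (0.09 and 0.11). A further run there, of 43 genes with a median of 0.29, also had control 1 within the knockout range. On chromosome 19 a run of 73 genes, which holds 23 of the 28 zinc finger genes of 19p12, had a median of -0.25 and rested on control 2 (0.53, against -0.01 and -0.03 in control 1 and 3 and -0.13 to 0.09 in the knockout). A run of 37 genes on chromosome 3 had a median of -0.10, with control and knockout libraries overlapping. A change in copy number, in chromatin or in any other property of the line was not tested.

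**Figure D5:**
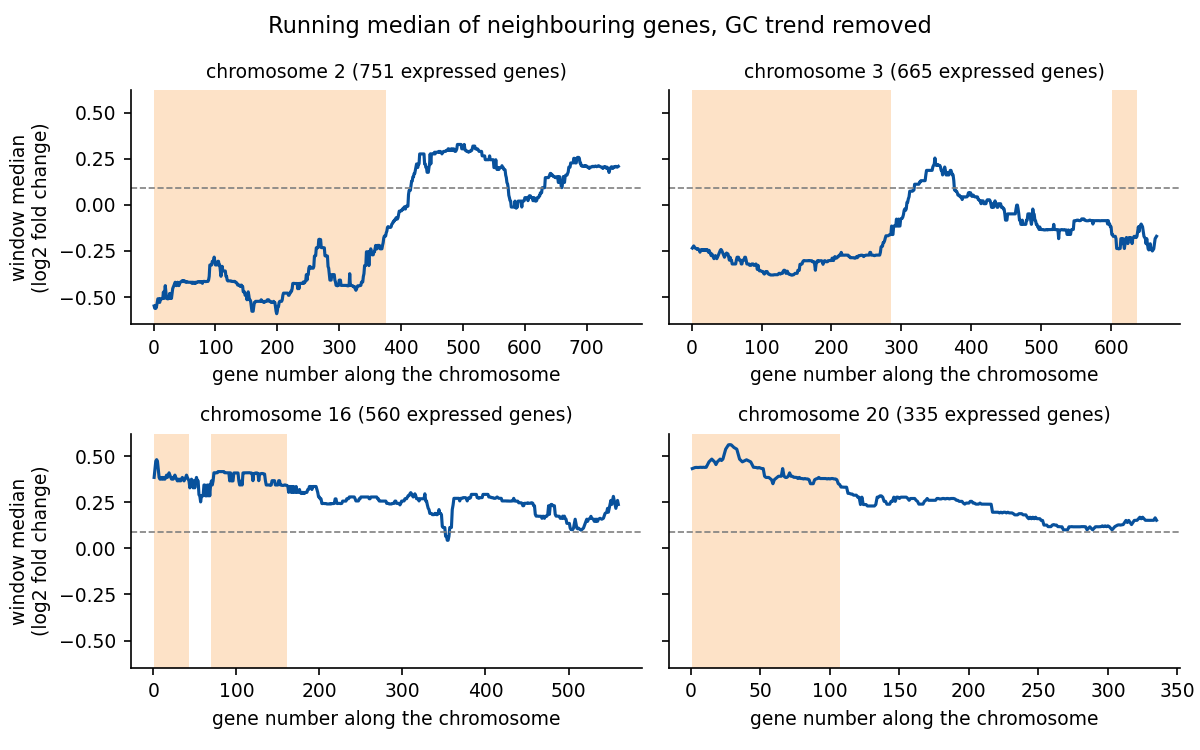
Running median log2 fold change of 101 neighbouring expressed genes along 4 chromosomes with the GC trend removed, with the runs shaded and the median of all placed genes (0.09) dashed. Chromosome 2 lies below the dashed line over its shaded run of 375 genes, and chromosome 20 lies above it over its run of 107.

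The ATRA libraries give the same genotype comparison in separate libraries of the same lines. There 626 genes were called higher in the knockout (3.27%) and 811 lower (4.24%), 7.51% in all. Of the 6676 genes called untreated, 95.2% had the same sign with ATRA, 1054 were called there with the same sign and 0 with the opposite sign. The share of same signs over all genes tested was not counted, so the 95.2% has no baseline and is not read as replication. No gene passed edgeR's test of the difference between the 2 comparisons at an adjusted p under 0.05, and 1868 (9.77%) had an unadjusted p under 0.05. Since the knockout line, its GC slope and its near-identical pair recur in those libraries, the shared signs carry them too.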

How the data were processed

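Polyadenylated RNA libraries made with a stranded kit, per the labels' protocols, were sequenced, and the deposited table holds the authors' raw read counts per gene. The submitters' processing notes name bcl2fastq, TopHat2, Subread, featureCounts and DESeq2 and the builds hg19 and GRCh37; their versions and whether counting used the strand are not stated there, so antisense pairs are uncertain. The members and gene lists were chosen with earlier results of these data known.

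All 12 libraries were fitted together with edgeR 4.0.16 (R 4.3.3), with TMM scaling, filterByExpr at a minimum count of 10, and the quasi-likelihood test with Benjamini-Hochberg adjustment over 19130 genes; the biological coefficient of variation was 0.37. CPM use TMM-scaled totals, and 3 counts correspond to 0.0433 to 0.128 CPM. GC content, as the median over a gene's transcripts, and gene places came from GENCODE (GRCh38, not the build of the counts). Genes were matched by symbol for 31126 and by RefSeq synonym for 1904 of 56638 symbols. GC content covered 97.1% of genes of at least 5 CPM. The trend was removed per library as an offset from a smooth fit on GC. On simulated counts of this comparison (18741 genes) edgeR called 71% of the 100 genes given a 4-fold difference, 7% of the 100 given a 2-fold difference, and 3 genes given none. The simulated libraries were independent, with a common spread for all genes. They held no GC slope between genotypes and no near-identical pair, so they do not measure false calls in the real libraries.

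Genes are named by rule: of each list, up to 4 called members with the smallest adjusted p, at least 1 CPM in a group and no overlap; over all genes, up to 15 highest and 15 lowest changes among genes of at least 5 CPM called also with the summed pair; genes with no count in 1 group; members where a count is 5 or fewer; and the ends of each run. Others are named as chosen after their values were seen. Alternatives were DESeq2 1.42.0 and limma 3.58.1 (voom), other scalings, filters, a replicate block, thinning, and leaving out each library. A few items are not reported here.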

Additional observations from a re-analysis of the deposited data

How the results depend on the processing

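Against 6676 calls (2480 higher, 4196 lower), removing the GC trend gave 2925 (1638 higher, 1287 lower), the summed pair 1072 (403 and 669), both steps 146 (112 and 34), and a test against a log2 fold change of 1 gave 418 (178 and 240). A replicate block on untreated libraries alone with the GC trend removed gave 1810 (1184 and 626). Leaving out 1 library gave 3058 to 8453 calls, 1111 to 3512 of them higher and 1947 to 4941 lower. DESeq2 (7831), limma-voom (6440), RLE scaling (6710), no filter (6668), a strict filter (6330), thinning (6477), a length trend (6838) and untreated libraries alone (5489) stayed within 1.5 times. Same-numbered libraries did not deviate together (correlations 0.02, -0.04 and -0.07), and the replicate block gave 5772 calls. The cause of these shifts was not tested. Counts of under 3 reads limit the smallest levels. Some signs turned. POU5F1 ranged from -0.088 without knockout 3 to 0.92 without control 2. With the block and the trend removed KDM6A stood at 0.053, SH3YL1 at 0.032 and PDE12 at 0.16, and with both steps PDE12 stood at 0.068 and TRNT1 at 0.036; KDM6A, SH3YL1 and TRNT1 had been called lower as counted.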

Other observations

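Genes of monoamine handling, chosen after their values were seen and so given no weight as a list, were low in the knockout. SLC18A2, which loads monoamines into vesicles, stood at 0.961, 2.64 and 2.48 CPM in the control, and the 3 knockout libraries held 3 counts in all, a ratio of 60.1 (95% counting interval 20.4 to 293). TH, tyrosine hydroxylase, had 2 counts in the knockout and 66 in the control, a ratio of 16.6 (4.42 to 140.1).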
